A study of Homo sapiens with 3 samples.

Results

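Desmosomes are the cell-to-cell junctions of epithelia that anchor keratin filaments at the cell surface. Desmogleins (DSG) and desmocollins (DSC) are the cadherins that bind across the gap between cells. Inside the cell, their tails hold plakoglobin (JUP) and plakophilins (PKP), armadillo-repeat proteins, and desmoplakin (DSP) ties this plaque to keratin. In stratified epithelia such as epidermis, DSG2 and DSC2 are the cadherins shared with simple epithelia, DSG3 and DSC3 belong to the basal layers, and DSG1 and DSC1 to the upper, differentiating layers.

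The 10 desmosome genes described here were taken by name from a table of 29689 gene symbols, and all 10 were present. They are 3 desmogleins (DSG1, DSG2 and DSG3), 3 desmocollins (DSC1, DSC2 and DSC3), DSP, PKP1, PKP3 and JUP. RNAseq was performed on tumors of SUM-149, an established triple-negative breast cancer (TNBC) cell line, grown with Matrigel in the mammary fat pads of female Nu/Nu mice, which are athymic. There was 1 library each from a tumor of mice given vehicle, the CDK2 inhibitor dinaciclib (CDK2i) for 10 days, or the EZH2 inhibitor named EPZ6438 in the sample labels (EZH2i) for 10 days. CDK2 is a cell cycle kinase, and EZH2 is the methyltransferase that places the repressive mark on lysine 27 of histone H3. The study used these tumors to ask which genes respond to blocking either enzyme. With 1 library per group, no value below has a replicate, no p-value was computed, and the effect of a drug cannot be told apart from the difference between 1 tumor and another.

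Values are FPKM, fragments scaled to transcript length and library size, deposited as log2. The libraries held about 16800000 (vehicle), 19100000 (CDK2i) and 17500000 (EZH2i) fragments, as recovered from the step that 1 fragment makes in weakly expressed genes. A change is the difference of log2 FPKM between 2 libraries. Its 95% interval, from approximate fragment numbers, covers counting error only, and neither the difference between tumors nor that between library preparations. A gene was counted as higher or lower when it differed by more than 2-fold and at least 1 of both libraries exceeded log2 FPKM 3 (8 FPKM), the fold and level thresholds the study states for its own list. The p-value threshold stated with them was not applied, since 1 library per group gives no error. Genes were called expressed when their mean log2 FPKM was above 1 and no library was listed at −9, the value used for an FPKM of 0. Over the 11109 expressed genes the median of the change was −0.11 for CDK2i and 0.19 for EZH2i. In the EZH2i tumor the changes of all genes ran with base composition and transcript length. Over 10206 expressed genes, which are not independent replicates, the Spearman correlation of the change with the GC content of the transcript was −0.57 in EZH2i and 0.0356 in CDK2i, and with its length 0.453 and 0.0909. Member values are therefore also given with this trend removed. Epithelial markers were present, with EPCAM at 66.3, 74 and 81 FPKM in vehicle, CDK2i and EZH2i, and the estrogen and progesterone receptor genes were at or below 1.10 FPKM in each library, with PGR listed at 0 in vehicle. ERBB2 was at 30.4, 30.2 and 21.9 FPKM. Of the adipocyte markers, FABP4 was at 32.6, 18.6 and 3.03 FPKM, PLIN1 at most at 0.625, and ADIPOQ was listed at 0 in vehicle and EZH2i. The summed FPKM of 6 fibroblast markers was 24.4, 38.3 and 28.8, that of 4 leukocyte markers 8.24, 8.10 and 3.36 with CD68 listed at 0 in both treated tumors and PTPRC in EZH2i, that of 3 endothelial markers 0.833, 0.730 and 0.466, and that of 2 melanocyte markers 1.53, 1.74 and 1.20. The part of host or other cells in the values below was not tested.

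The 6 cadherin genes lie side by side on chromosome 18 (GRCh37, 28569331 to 29128971, a span of 560 kb), the desmocollins on the minus strand and the desmogleins on the plus strand, with DSG4 between DSG1 and DSG3. DSC1 and DSG1, the least expressed members in the vehicle tumor, also have the promoters with the fewest CpG dinucleotides among the 9 members whose promoter could be matched. Their 250 bases before the transcription start are shown with those of DSC3 and DSG2, cadherins of the same cluster with CpG-rich promoters. Sequences are from the RefSeq promoters of GRCh38.p14 and were placed on GRCh37 by exact match. Each is written 5′ to 3′ on the strand of transcription, with every CpG in capitals. DSC1 is at chr18:28742820-28743069 (minus strand), DSG1 at chr18:28897873-28898122 (plus), DSC3 at chr18:28622709-28622958 (minus) and DSG2 at chr18:29077890-29078139 (plus).
DSC1: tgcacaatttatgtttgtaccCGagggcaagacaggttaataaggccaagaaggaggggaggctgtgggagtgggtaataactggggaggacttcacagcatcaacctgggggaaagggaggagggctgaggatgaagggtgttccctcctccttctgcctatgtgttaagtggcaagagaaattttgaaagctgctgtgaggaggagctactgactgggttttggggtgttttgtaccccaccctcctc
DSG1: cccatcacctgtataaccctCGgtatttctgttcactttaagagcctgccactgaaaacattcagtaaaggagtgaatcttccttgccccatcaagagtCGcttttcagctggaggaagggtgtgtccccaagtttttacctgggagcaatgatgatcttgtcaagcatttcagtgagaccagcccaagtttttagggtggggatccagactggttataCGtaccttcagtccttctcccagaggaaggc
DSC3: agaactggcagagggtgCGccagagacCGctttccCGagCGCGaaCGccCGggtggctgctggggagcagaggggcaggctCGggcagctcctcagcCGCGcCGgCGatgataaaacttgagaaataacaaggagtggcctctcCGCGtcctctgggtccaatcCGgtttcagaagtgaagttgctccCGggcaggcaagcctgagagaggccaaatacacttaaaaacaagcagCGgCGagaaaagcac
DSG2: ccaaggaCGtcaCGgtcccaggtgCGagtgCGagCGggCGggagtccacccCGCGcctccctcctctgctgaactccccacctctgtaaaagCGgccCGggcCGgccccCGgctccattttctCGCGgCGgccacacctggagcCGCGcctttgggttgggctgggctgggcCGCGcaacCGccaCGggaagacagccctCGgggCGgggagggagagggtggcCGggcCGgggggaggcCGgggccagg

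Over windows of 250 bases before and 50 after the start, DSC1 held 2 CpG and DSG1 held 3, against 25 in DSC3 and 36 in DSG2. The ratio of observed to expected CpG was 0.118 for DSC1 and 0.192 for DSG1, where 11.7% and 20.8% of the 35116 promoters in the RefSeq table have a lower ratio and the median is 0.579. DSG3 came next at 0.414, although it was the most expressed of the 6 cadherins in vehicle, at 74.8 FPKM. The windows of the other matched members lay between 0.550 and 0.833, and no window was matched for PKP3. Motifs were searched on both strands in the 11 windows of the members. The AP-1 motif TGANTCA was in none of them and is in 7.71% of all promoters. The motif of Grainyhead-like factors, AACNGGTT, was in none and is in 1.73%. The letters TATAAA were in none and are in 11.5%. CACCTG, an E-box that occurs in 20.6% of all promoters, was found in windows of DSG1, DSG2, DSC2, DSP and JUP. Among 53 pairs of member promoters, the longest stretch in common was 20 bases between DSG1 and DSG3 (aagtttttacctgggagcaa), and the next longest was 11 bases. It starts at −120 in DSG1 and at −78 in DSG3, counted from the transcription start. These are descriptions of the sequence, and no binding or chromatin data were analysed here.

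In the CDK2i tumor all 10 desmosome genes were higher than in the vehicle tumor, by 0.32 to 2.27 on the log2 scale with a median of 0.94. Higher by any amount holds for 41.9% of expressed genes. DSC1, DSG1, JUP and DSC2 passed both thresholds, 4 of the 10 members, where 3.27% of the genes that reach the expression minimum did so in this direction. No member was lower, where 8.07% of those genes passed as lower. The members made up 0.192% of the summed FPKM in vehicle and 0.388% in CDK2i. Removing the GC and length trend left the median at 0.86, beside −0.09 over all genes fitted, and left all 10 members higher, 3 of them past 2-fold.

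In the EZH2i tumor the members' median was 0.63, with a range from 0.01 to 2.15, and all 10 were higher with the deposited scaling, as were 61.5% of expressed genes, but PKP1, PKP3 and JUP were lower once each library was centred on its median gene, and DSC2 once the trend was removed. The other 7 members lay above the median gene, DSC2 included. DSC1, DSG1 and DSC3 passed both thresholds, against a share of 8.93% of the genes at the expression minimum. With the trend removed, DSC1 alone was above 2-fold, and the median was 0.45 beside 0.21 over all genes. Both comparisons share the vehicle library, so a low value there makes a gene higher in both. DSG1 and DSC1 are also on the list of shared genes that the study drew from these libraries, so their direction here is not independent evidence.

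**Figure D1:**
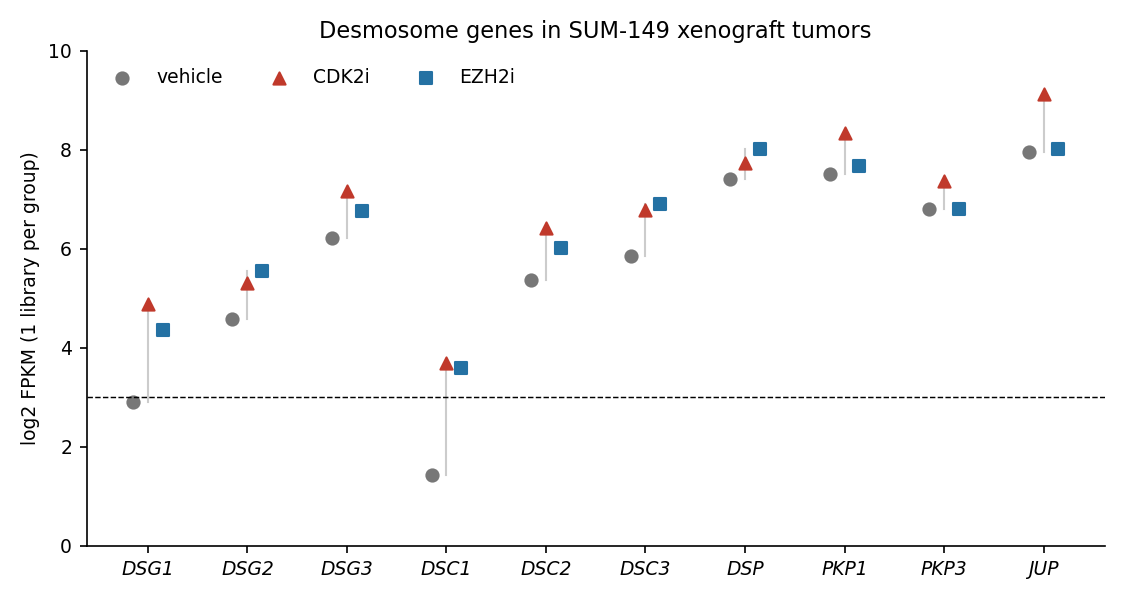
Expression of the 10 desmosome genes as log2 FPKM (vertical axis) in the vehicle (circles), CDK2i (triangles) and EZH2i (squares) tumors, 1 library each, with the dashed line at the expression minimum of log2 FPKM 3. DSC1 and DSG1 are the only members below the minimum in vehicle, and JUP is the most expressed member in CDK2i at 555 FPKM.

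DSG1, the desmoglein of differentiating epidermis (chromosome 18, 28898123 to 28939209), had 7.46 FPKM in the vehicle tumor, 29.6 with CDK2i and 20.4 with EZH2i. Both treated tumors lay well above the vehicle tumor, and CDK2i above EZH2i. The change was 1.99 in CDK2i (counting interval 1.88 to 2.09) and 1.45 in EZH2i (1.34 to 1.56), from about 927 fragments in vehicle. With the trend removed these were 1.90 and 0.82. By rank of expression in the table, DSG1 stood at 6514 in vehicle, 2191 in CDK2i and 3413 in EZH2i.

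DSC1, its desmocollin counterpart (28709199 to 28742819), was at 2.69, 13.0 and 11.9 FPKM in vehicle, CDK2i and EZH2i. It had the largest change of the members in both comparisons, 2.27 in CDK2i (2.04 to 2.50) and 2.15 in EZH2i (1.92 to 2.38), a fold of 4.81 and 4.43. The treated tumors differed from each other by −0.12 (−0.25 to 0.01), an interval that includes 0. About 193 fragments stood behind the vehicle value, which makes these the widest intervals of the 10 genes. Its changes were 2.29 and 1.78 with the trend removed. DSG1 and DSC1 reached the expression minimum only through the treated tumors, so only a higher value could count for them.

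The cadherins of the basal layers were already abundant in the vehicle tumor. DSG3 (29027704 to 29058665) was at 74.8, 144 and 109 FPKM in vehicle, CDK2i and EZH2i. DSC3 (28569331 to 28622781) was at 57.8, 111 and 119 FPKM. In CDK2i both had a change of 0.94, just under the 2-fold threshold. In EZH2i, DSC3 was just above it at 1.05 (1.01 to 1.09) and DSG3 was at 0.54. The values with the trend removed were 0.86 and 0.44 for DSC3 and 0.94 and 0.12 for DSG3.

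DSC2 and DSG2 are the cadherins found in most desmosome-bearing tissues. DSC2 (28638806 to 28682485) was at 41.4, 84.9 and 65 FPKM in vehicle, CDK2i and EZH2i, changes of 1.04 (1.00 to 1.07) and 0.65. It passed in CDK2i by a margin that its counting interval touches, and with the trend removed its changes were 0.86, no longer past 2-fold, and −0.05. DSG2 (29078140 to 29128971) was at 24.0, 39.6 and 46.9 FPKM, highest in EZH2i, unlike DSG1 and DSG3. Its changes were 0.72 and 0.97, and 0.70 and 0.50 with the trend removed. In GENCODE, a further gene overlaps the 3′ end of DSC2, and antisense genes overlap the cluster. Whether the counting used strand is not given in the sources used here, so reads of overlapping genes cannot be told apart.

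Desmoplakin, the plakin that joins the plaque to keratin filaments, had the smallest change of the 10 in CDK2i. DSP (chromosome 6, 7541571 to 7586947) stood at 170 FPKM in the vehicle tumor, at 212 with CDK2i and at 257 with EZH2i. The changes were 0.32 (0.30 to 0.34) and 0.60 (0.58 to 0.62). They became 0.25 and 0.21 with the trend removed, the latter at the median of all genes.

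Of the armadillo genes, JUP was the most expressed and the one most different between the treated tumors. Plakoglobin is shared by desmosomes and adherens junctions. JUP (chromosome 17, 39910856 to 39943183) was measured at 248 FPKM in the vehicle tumor, 555 with CDK2i and 258 with EZH2i. It was thus 2.24-fold higher in CDK2i alone, with a change of 1.16 (1.14 to 1.18) there and 0.06 (0.03 to 0.08) in EZH2i. Its rank of expression was 201 in vehicle, 98 in CDK2i and 144 in EZH2i.

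The plakophilins cluster the cadherins and bind desmoplakin. PKP1, the plakophilin of the upper layers of epidermis (chromosome 1, 201252580 to 201302121), was at 183, 322 and 204 FPKM in vehicle, CDK2i and EZH2i. PKP3 (chromosome 11, 392614 to 404908) was at 111, 165 and 112 FPKM. As for JUP, the CDK2i tumor stood apart and the EZH2i tumor was near vehicle. The changes were 0.82 and 0.15 for PKP1, and 0.57 and 0.01 for PKP3, whose EZH2i interval (−0.03 to 0.06) includes 0. The armadillo genes are the members with the highest GC content, at 56.4% to 66.7%, and removing the trend set PKP1, PKP3 and JUP at 0.24, 0.59 and 0.45 in EZH2i, and at 0.80, 0.32 and 1.09 in CDK2i.

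**Figure D2:**
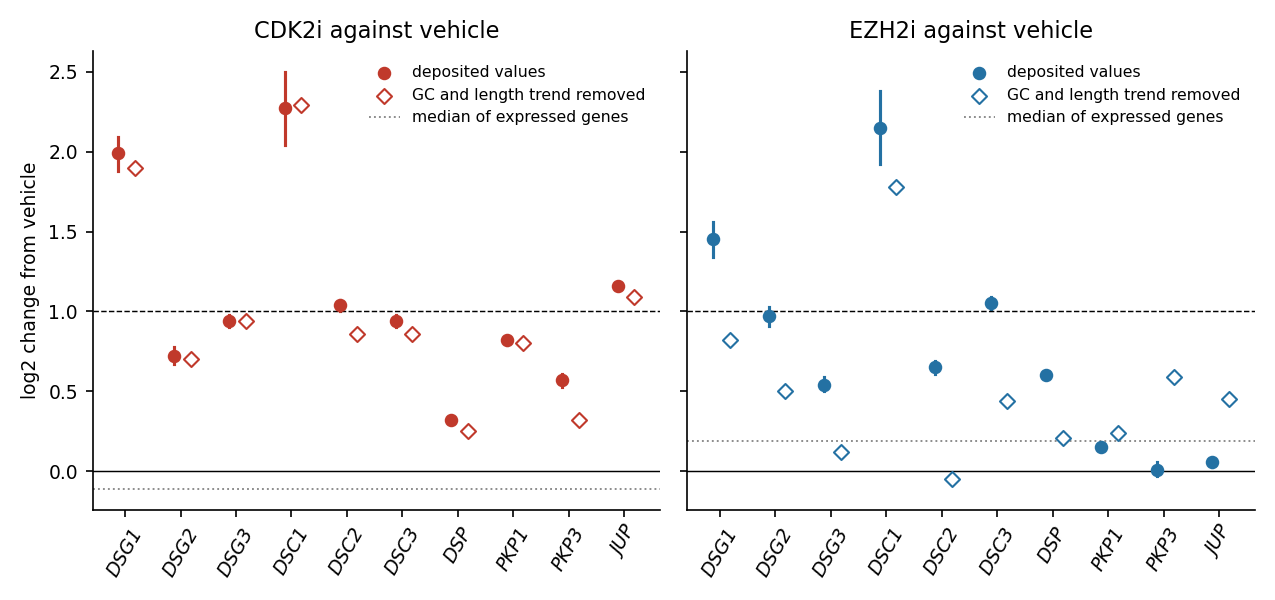
Change from the vehicle tumor in log2 FPKM (vertical axis) for each member in CDK2i (left) and EZH2i (right), as deposited (filled circles, with 95% counting intervals as bars) and with the GC and length trend removed (open diamonds). The dashed line marks 2-fold and the dotted line the median of expressed genes. Without the trend, DSC2 in CDK2i goes from 1.04 to 0.86, under the 2-fold line, and PKP3 from 0.57 to 0.32, while in EZH2i the cadherins come down and JUP and PKP3 go up.

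Grouped by role, cadherins and plaque genes differed more in EZH2i than in CDK2i. The 6 cadherins had a median of 0.99 in CDK2i and 1.01 in EZH2i. That of the 4 plaque genes was 0.69 and 0.11, and that of the 3 armadillo genes 0.82 and 0.06. The cadherins, with transcripts of 37.3% to 42.5% GC, and the plaque genes, with 47.7% to 66.7%, do not overlap in base composition. With the trend removed, the medians in EZH2i were 0.47 for the cadherins and 0.35 for the plaque genes, and in CDK2i 0.90 and 0.56, so the gap between them was then the larger in CDK2i. Over the 10 members, given as a description, the Spearman correlation of the change with GC content was −0.83 in EZH2i and −0.43 in CDK2i. These points share their libraries, and GC content and role go together among them.

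**Figure D3:**
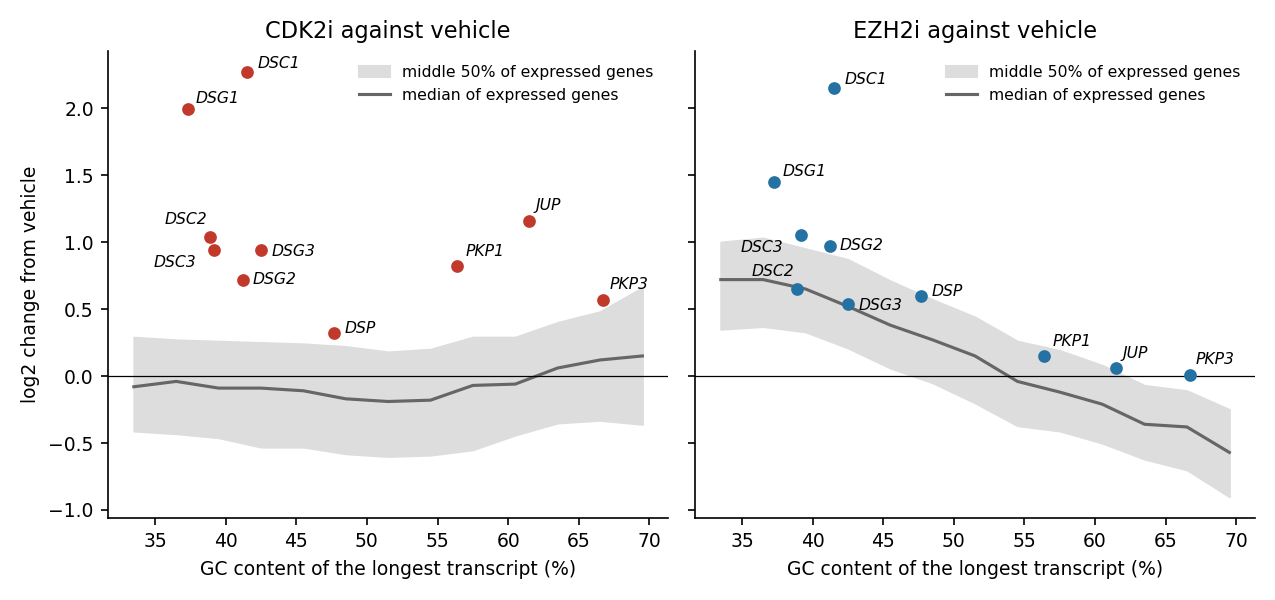
Change from vehicle in log2 FPKM (vertical axis) against the GC content of the longest transcript in percent (horizontal axis) in CDK2i (left) and EZH2i (right). The line is the median of expressed genes in bins of GC content, the grey band holds their middle 50%, and points are the desmosome genes. In EZH2i the members descend with the line, DSC1 and DSG1 farthest above it and DSC2 and DSG3 on it, whereas in CDK2i the line is nearly flat and the members lie above the band.

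Compared directly, the EZH2i tumor had lower values than the CDK2i tumor for 7 of the 10 members and higher values for 3 (DSG2, DSC3 and DSP), with a median of −0.39, while all 10 were lower when libraries were centred in that way. Of expressed genes 66.9% were higher in EZH2i than in CDK2i and the median gene was higher by 0.35, and every member lay below it. JUP was the 1 member past both thresholds, lower by a log2 difference of −1.11 (−1.13 to −1.08), in a direction that 6.53% of genes at the expression minimum took. None passed in the other direction, where 17.5% did. With the trend removed the difference for JUP was −0.64, and DSG1 had the largest at −1.08.

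The cadherins of differentiating layers held a larger share of the cadherin pool in both treated tumors. The summed FPKM of the 3 desmogleins was 106 in vehicle, 213 in CDK2i and 176 in EZH2i. DSG1 made up 7.03%, 13.9% and 11.6% of it, and DSG3 70.4%, 67.5% and 61.8%. The 3 desmocollins summed to 102, 208 and 196 FPKM, with a share for DSC1 of 2.64%, 6.22% and 6.07%. Removing the trend gave shares in CDK2i and EZH2i of 13.3% and 10.3% for DSG1, and 6.81% and 7.24% for DSC1. DSG3 and DSC3 thus remained the main cadherins in every library. DSC2 kept its share of 40.7% in CDK2i and stood at 33.1% in EZH2i, while DSG2 stood at 22.6%, 18.6% and 26.6% of the desmogleins.

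Desmogleins and desmocollins kept near equal sums, with a ratio of 1.04 in vehicle, 1.02 in CDK2i and 0.898 in EZH2i. The ratio of all cadherins to JUP, their shared partner in the plaque, was 0.839, 0.759 and 1.44. Relative to DSP, the cadherins were at 1.23, 1.99 and 1.45. With the trend removed, a calculation added after seeing the data, the ratio to JUP was 0.763 in CDK2i and 0.756 in EZH2i, so that in EZH2i it turned from above to below that of vehicle. The ratio to DSP was then 1.31 in EZH2i, and in both treated tumors it stayed above vehicle. Among the armadillo genes JUP held 45.8%, 53.2% and 45.0% of the summed FPKM. These ratios compare transcripts per length and not proteins.

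**Figure D4:**
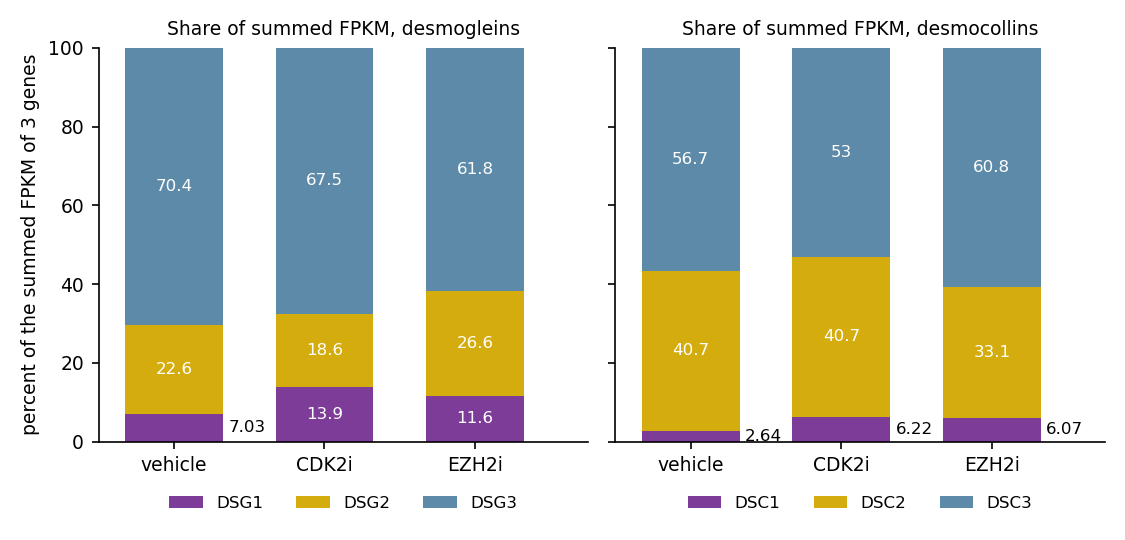
Share of each desmoglein (left) and desmocollin (right) in the summed FPKM of its 3 genes, in percent, in the vehicle, CDK2i and EZH2i tumors (1 library each). The DSG1 and DSC1 shares at the foot of the bars are larger in both treated tumors than in vehicle, and DSG3 and DSC3 hold the largest share in every bar.

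Of 12 keratins, the filaments anchored at desmosomes, 6 passed as higher in CDK2i and none as lower, with a median of 1.03, against 3.27% of genes at the expression minimum. The other 6 lay between −0.37 (KRT19) and 0.90 (KRT1). The largest changes were those of KRT16 (1.72), KRT6A (1.31) and KRT17 (1.29), keratins of activated epidermis, and of the basal keratin KRT14 (1.35). In EZH2i none of the 12 passed as higher and 3 as lower, KRT10 (−3.58), KRT1 (−1.79) and KRT19 (−1.24), where 4.42% of genes at the expression minimum were lower. KRT1 and KRT10 pair with each other in the upper layers of epidermis, where DSG1 and DSC1 are found. KRT1 was at 452, 842 and 131 FPKM in vehicle, CDK2i and EZH2i, and KRT10 at 507, 510 and 42.5. In EZH2i they were thus lower than in vehicle while DSG1 and DSC1 were higher, and removing the trend left KRT10 at −3.33 and KRT1 at −1.56. KRT19 was then at −0.52, no longer past 2-fold, and the median of the 12 keratins in EZH2i turned from −0.33 to 0.12.

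Adherens junctions, which share plakoglobin with desmosomes, had a lower median change in CDK2i, 0.43 beside 0.94 for the members. All 10 expressed genes of the 11 listed were higher there, by 0.18 to 0.85, as were 41.9% of expressed genes. None passed the thresholds. Of genes at the expression minimum 3.27% passed as higher and 8.07% as lower, so this count does not set them apart. In EZH2i AFDN (1.17) and VCL (1.08), which link the junction to actin, passed as higher and NECTIN4 (−1.04) as lower, where 8.93% and 4.42% of genes did. None of these was past 2-fold with the trend removed, at 0.82, 0.64 and −0.83. AFDN, at log2 FPKM 2.78 in vehicle, reached the expression minimum there only through the EZH2i tumor, so it could pass only as higher. E-cadherin itself, CDH1, had changes of 0.46 and 0.34. Of 17 further cadherins only 4 were expressed. CDH13, a cadherin without a cytoplasmic tail, passed as higher in CDK2i (1.32) and EZH2i (1.07), against 3.27% and 8.93% of genes. The latter change was 0.56 with the trend removed. CDH13, at log2 FPKM 2.73 in vehicle, reached the minimum only through the treated tumors, so it could pass only as higher. Both of its changes rest on the same vehicle value.

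Hemidesmosomes anchor the same keratins to the basement membrane. Of their 6 genes, 5 reached the expression minimum in CDK2i, where ITGA6 (1.32) and COL17A1 (1.03) passed as higher, against 3.27% of genes. All 6 reached it in EZH2i, DST only through that tumor. There ITGA6 (1.73), DST (1.36) and PLEC (1.04) passed as higher, against 8.93% of genes. The medians were 0.77 in CDK2i and 0.87 in EZH2i. DST was at 0.74 in EZH2i with the trend removed, under 2-fold, and the medians were 0.40 and 0.75. Of 7 further desmosome genes, only 3 in CDK2i and 4 in EZH2i reached the expression minimum, and none passed against vehicle. With 3.27% and 8.93% of all genes at the minimum passing as higher, this count does not set them apart. The 5 expressed ones had medians of 0.34 in CDK2i and −0.09 in EZH2i, which were 0.39 and 0.06 with the trend removed. PKP2, the plakophilin of simple epithelia and heart, had changes of 0.34 and 1.30 at levels of 2.94, 3.72 and 7.26 FPKM, under the expression minimum. Its changes were 0.39 and 1.10 with the trend removed.

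Among 9 genes of proteases that cut desmosomal cadherins and of their inhibitors, only MMP9 passed in both tumors. In CDK2i 8 reached the expression minimum, KLK5 and KLK7 only through that tumor. Of these 4 were higher, KLK14 (2.70), MMP9 (2.35), KLK5 (2.01) and KLK7 (1.33), against 3.27% of genes. ADAM9 and ADAM17 had changes of 0.73 and 0.63 in CDK2i, and 0.65 and 0.57 with the trend removed. Kallikreins KLK5, KLK7 and KLK14 cleave DSG1 or DSC1 during the shedding of skin. In EZH2i their changes were −0.04, −1.12 and −0.36. KLK5 and KLK7 were under the expression minimum in both vehicle and EZH2i, so neither could pass there, and KLK14 did not. Of the 7 genes that reached it, MMP9 (1.49), ADAM9 (1.19), ADAM17 (1.18) and CTSV (1.14) passed as higher, against 8.93% of genes. The kallikrein inhibitor SPINK5 (−1.68) passed as lower, against 4.42%. After removal of the trend MMP9 (2.06) and SPINK5 (−1.93) were still past 2-fold, while ADAM9, ADAM17 and CTSV were at 0.57, 0.60 and 0.76. Of 12 transcription factors of epidermis, 8 reached the minimum in CDK2i and 9 in EZH2i. OVOL1 (1.52) was higher in CDK2i, against 3.27% of genes, and GRHL3 (1.65) and TP63 (1.13) in EZH2i, against 8.93%. OVOL1, at log2 FPKM 3.01 in CDK2i, and GRHL3 reached the minimum only through the tumor in which they passed. PRDM1 had a larger change of 2.48 in EZH2i but stayed under the minimum. GRHL3 was at 1.81 and TP63 at 0.75 with the trend removed. With no replicates, none of these differences between the treated tumors was tested.

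**Figure D5:**
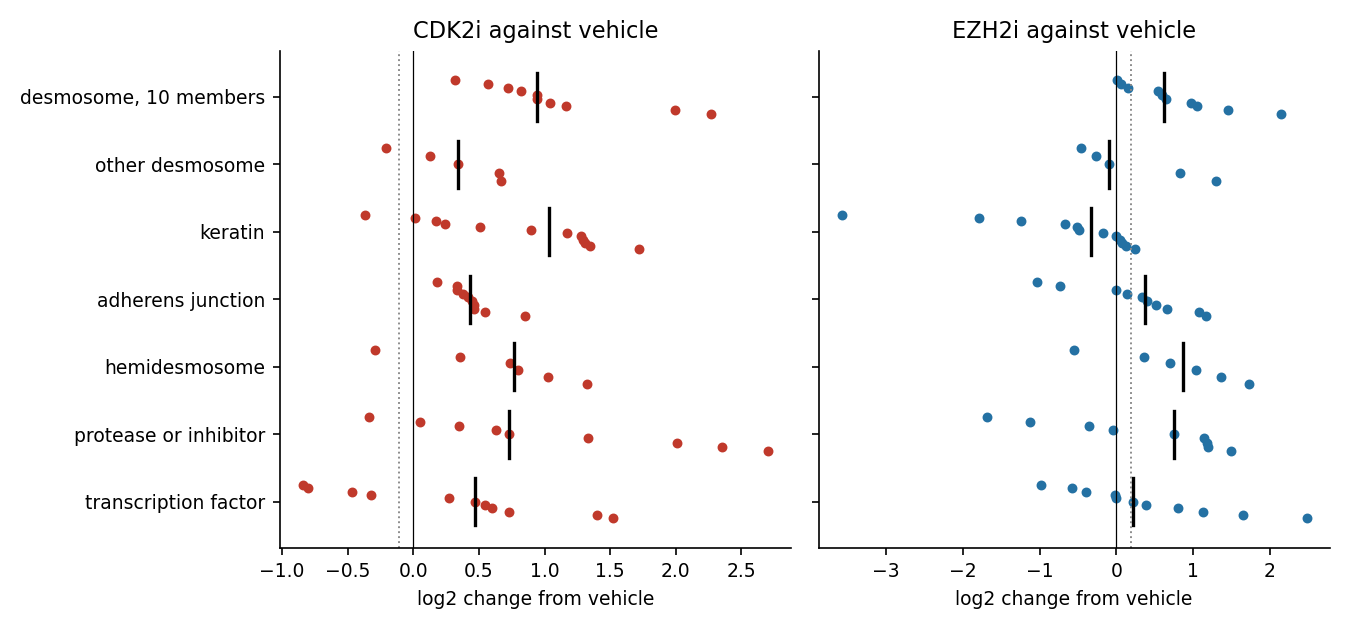
Change from vehicle in log2 FPKM (horizontal axis) of the expressed genes of each list (vertical axis) in CDK2i (left) and EZH2i (right). Points are genes, black bars the median of a list and the dotted line the median of all expressed genes. The keratins stand with the desmosome genes in CDK2i, at a median of 1.03, and below 0 in EZH2i, at −0.33, a median that is 0.12 with the GC and length trend removed.

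Genes were ranked by how near their changes in both comparisons, as deposited, were to those of DSG1 and DSC1. By the distance between pairs of log2 changes over 9912 expressed protein-coding genes, the 3 nearest to DSG1 were MMP9 (distance 0.36), C11orf91 (0.37) and A2ML1 (0.38), and the 3 nearest to DSC1 were PRR9 (0.20), the chemokine gene CXCL2 (0.37) and SPRR2G (0.46), which encodes a small proline-rich envelope protein. The measure rests on 3 libraries. In vehicle, PRR9 was at log2 FPKM −0.37, C11orf91 at 0.48, SPRR2G at 1.88 and CXCL2 at 2.63, all under the level of 3 used as the expression minimum. Outside the cadherin cluster, the protein-coding neighbours within 500 kb lay below the cadherins in CDK2i, whose changes were 0.72 or more. B4GALT6, TRAPPC8 and RNF125 had changes of 0.15, 0.40 and −0.76 in CDK2i and of 1.56, 1.06 and 1.51 in EZH2i. Only TRAPPC8 among them was expressed by the rule above, and SLC25A52, the other neighbour, was listed at 0 in CDK2i.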

How the data were processed

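RNAseq was performed on total RNA of 3 xenograft tumors, 1 library per group. Per the submitters' processing notes, CASAVA, STAR and hg19 were used, without versions, and the authors deposited log2 FPKM per gene symbol. The counting tool, its use of strand and the handling of mouse reads are not given in the sources used here. Groups follow the sample labels, and the study's figure legend names another EZH2 inhibitor for this model. Gene positions, transcript GC content and length came from GENCODE 44 on GRCh37 and promoters from RefSeq (GRCh38.p14). The trend with GC content and length was fitted by least squares with polynomials of degree 3 over expressed genes without ribosomal protein genes, subtracted around its mean, and tested on simulated data. Fragment numbers were approximated from 1-fragment steps and exon lengths, with exact (Clopper-Pearson) 95% intervals of the change. FPKM shares were computed on the linear scale. Python 3.11.15, numpy 2.4.6, pandas 2.3.3, scipy 1.17.1 and matplotlib 3.10.9 were used. No test was possible with 1 library per group. Named genes were all members, up to 4 list genes past both thresholds with the largest changes and any that a sentence counts, the 3 nearest genes and the neighbours of the cluster, and other list genes named were chosen after their values were seen. Members, lists and rules were chosen with earlier results of these data known. Alternatives covered scaling, thresholds, pseudocount and trend.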

Additional observations from a re-analysis of the deposited data

Results flagged for a closer look

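KRT1, KRT17, KLK7 and KLK14 were looked at again, as each lay above vehicle in the CDK2i tumor and below it in the EZH2i tumor. Other list genes did so too, among them PERP (0.67 and −0.46) and KLF4 (0.73 and −0.58). The log2 difference of EZH2i from CDK2i was −2.68 for KRT1, −1.80 for KRT17, −2.45 for KLK7 and −3.05 for KLK14. KLK14 was at 15.8, 102 and 12.3 FPKM in vehicle, CDK2i and EZH2i, and KLK7 at 5.28, 13.3 and 2.43. The difference was not tested, since each group has 1 library, and both comparisons share the vehicle library. With the GC and length trend removed, KRT1 and KLK7 remained below vehicle in EZH2i (−1.56 and −0.95), while KRT17 and KLK14 stood at 0.01 and 0.45.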

How the results depend on the processing

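In CDK2i all 10 members stayed higher than vehicle under each scaling and trend setting tried. The number past the thresholds, 4, became 8 with a fold of 1.5, 6 with libraries centred, 3 with equal sums and 3 with the trend removed. The median of 0.94 was 1.05 with each library centred on its median expressed gene, 0.80 with summed FPKM made equal without ribosomal protein and mitochondrial genes, and 0.86 with the trend removed. In EZH2i the count of 3 became 6 with a fold of 1.5, 2 centred, 4 with equal sums and 1 with the trend removed, centred or not. The median of 0.63 was 0.43 centred, 0.45 with the trend removed and 0.24 with the trend removed and centred, an alternative chosen after seeing the data. Centred, PKP1, PKP3 and JUP were lower than vehicle, at −0.04, −0.18 and −0.14. DSC2 was at −0.05 with the trend removed and, with centring as well, at −0.26, with DSG3 at −0.09. Between EZH2i and CDK2i the count of 1 became 2 with a fold of 1.5, 2 centred, 0 with equal sums and 3 with the trend removed and centred. The median of −0.39 was −0.74 centred, −0.21 with equal sums, −0.53 with the trend removed and −0.83 with both. DSG2, DSC3 and DSP were at −0.11, −0.24 and −0.07 centred, −0.20, −0.41 and −0.04 with the trend removed, and −0.50, −0.71 and −0.34 with both. DSC1 was at 0.06 with equal sums and PKP3 at 0.27 with the trend removed. The cause of these shifts was not tested beyond the settings themselves. Other expression minimums and pseudocounts of 1 and 0.1 left the counts at 4, 3 and 1. Leaving out a replicate could not be run with 1 library per group. No paired analysis was possible because each group has 1 library. Depth limited DSC1 most, whose counting interval reached 0.23 to either side against vehicle, and the error between tumors was not measured.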

Other observations

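DSG4, a desmoglein of hair follicles that lies in the cadherin cluster between DSG1 and DSG3, was nearly silent in the vehicle tumor, at 0.0921 FPKM from about 7 fragments. It was at 0.427 FPKM in CDK2i (about 38 fragments) and at 3.69 FPKM in EZH2i (about 304 fragments). The log2 change was 2.21 in CDK2i (counting interval 1.07 to 3.66) and 5.33 in EZH2i (4.32 to 6.71), and removing the GC and length trend left 2.22 and 4.92. All its levels were under the expression minimum of 8 FPKM. Unlike DSG1 and DSC1, DSG4 was higher in EZH2i than in CDK2i, by 3.11 (2.64 to 3.65). This value was chosen after it was seen.

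PERP, a membrane protein that desmosomes of stratified epithelia require, was the most expressed of the further desmosome genes, at 489 FPKM in the vehicle tumor, 776 with CDK2i and 355 with EZH2i. Its changes were 0.67 and −0.46, and those of PPL, which encodes periplakin, were 0.65 and −0.09. The difference of EZH2i from CDK2i was −1.13 for PERP and −1.11 for JUP, and with the trend removed −1.53 and −0.64.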
